A study of Mus musculus with 80 samples.

Results

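The livers described here came from mice fed ad libitum and killed in constant darkness at subjective dusk, circadian time (CT) 12 and CT36, or at subjective dawn, CT24. The members are the libraries titled control at these times, 12 of the 80 in the series: 8 at dusk and 4 at dawn, with 2 males and 2 females at each time and 1 mouse per library. All were C57BL/6J mice 8 to 12 weeks old that ate standard chow, were housed in groups, spent 10 days under a 12:12 h light and dark cycle and then went into darkness before sampling. Some 40 mg of the left lobe, cut from its middle, gave poly(A) RNA for stranded libraries. The fasted mice compared below lost their food at CT10, so that CT12, CT24 and CT36 came 2, 14 and 26 h after its removal. The dusk livers had a mean time of CT24, the time of the dawn livers.

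The mammalian clock is a feedback loop of transcription. CLOCK and its partner BMAL1 bind E-boxes and activate the Period and Cryptochrome genes, whose proteins return to repress them. The nuclear receptors REV-ERB and ROR close a further loop by competing for elements in Bmal1 and related genes, and an output arm runs through the PAR bZIP factors and their antagonist E4BP4, which share the D-box. In the liver these loops help to time bile acid, lipid, glucose and methyl group metabolism, and feeding, body temperature and glucocorticoids reach many of the same genes.

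The 12 libraries held between 34574971 and 59927771 counts, and the totals did not separate dusk from dawn (exact permutation test, two-sided, p = 0.988). Rn18s-rs5, a ribosomal RNA sequence, took 0.0725% to 1.402% of the counts at dusk and 0.125% to 0.6603% at dawn (exact permutation p = 0.917). That test compares means, and control CT12 female replicate 2 alone held 1.402%. The next dusk library held 0.112%, so all other dusk libraries lay below every dawn library. The medians were 0.0967% at dusk and 0.167% at dawn, and whether this share bears on any call was not tested. Hepatocyte markers summed to 65033 to 101149 CPM (counts scaled by library size) at dusk and 61415 to 94726 CPM at dawn (exact permutation p = 0.366). Most of this sum was Alb, whose mean ran from 62608 CPM at CT32 to 78161 CPM at CT20 in fed livers. In whole tissue, fewer cells of a type and less RNA per cell cannot be told apart. The treatment label of the 4 dawn libraries reads fasted although their titles read control, and the titles were followed. At CT24 none of 5 genes of the fasting response overlapped between livers titled control and livers titled fasted. Fgf21, a hormone that the fasted liver secretes, lay between 0.1797 and 0.959 CPM in the first and between 11.1 and 32.6 CPM in the second.

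Of 20114 genes tested, 3699 (18.4%) differed between dusk and dawn at an adjusted p under 0.05. Of these, 1778 were higher at dusk (8.84% of the genes tested) and 1921 lower (9.55%). The adjusted p comes throughout from edgeR's quasi-likelihood test with Benjamini-Hochberg adjustment over all genes, and each difference is a log2 ratio of dusk over dawn with its standard error (SE). The change was at least 1.5-fold in 1603 of the called genes (7.97%), and 129 were at least 4-fold higher and 120 at least 4-fold lower. All 8 dusk livers lay on the same side of all 4 dawn livers for 1808 genes (8.99%). The median difference of all genes tested was 0.012. Without control CT24 female replicate 2, 2443 genes were called.

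**Figure D1:**
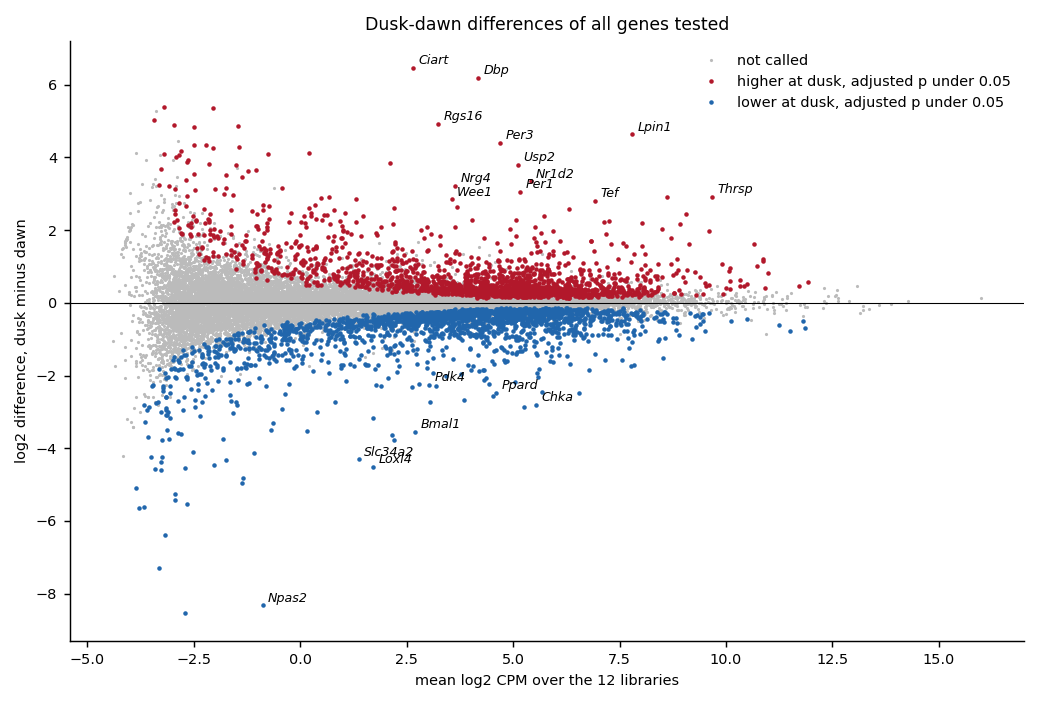
The horizontal axis is the mean log2 CPM of a gene over the 12 libraries and the vertical axis its log2 difference, dusk minus dawn. Each point is 1 of 20114 genes, and colour marks the 1778 called higher and the 1921 called lower at dusk.

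The activators of the loop were low at dusk, 3 of the 3 tested, where 9.55% of all genes were called lower. Bmal1, the partner of CLOCK, lay at 1.52 to 4.82 CPM with a median of 2.71 CPM at dusk and at 30.2, 33.2, 38.02 and 39.1 CPM in the 4 dawn livers (males, then females, here and below). No dusk liver came near a dawn liver, and the difference was -3.55 ± 0.24 (SE), or 11.7-fold lower at dusk (adjusted p = 7.86e-11). Clock lay at 27.5 to 51.3 CPM with a median of 40.1 CPM at dusk and at 113, 121, 88.1 and 87.5 CPM at dawn, again without overlap (difference -1.35 ± 0.086, adjusted p = 2.86e-11). Npas2, a paralogue of Clock that also pairs with BMAL1, was nearly absent at dusk. Its 8 dusk libraries held 19 counts together, 1 of them none, against 3561 counts in the 4 dawn libraries (difference -8.32 ± 0.35, adjusted p = 5.04e-14). The dawn levels of Npas2 were 11.6, 13.1, 25.9 and 24.1 CPM.

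The REV-ERB receptors, which repress Bmal1, moved the other way. Nr1d1, which encodes REV-ERBα, lay at 18.3 to 38.1 CPM with a median of 28.4 CPM at dusk and at 6.91, 8.38, 3.37 and 5.54 CPM at dawn (difference 2.28 ± 0.26, adjusted p = 6.45e-07). Nr1d2, which encodes REV-ERBβ, lay at 68.5 to 102 CPM with a median of 95.7 CPM at dusk and at 9.07, 12.8, 7.47 and 7.703 CPM at dawn (difference 3.34 ± 0.16, adjusted p = 1.62e-13). Both genes separated dusk from dawn in all 12 livers. Of the ROR activators that oppose them, Rora was not called (-0.17 ± 0.10, adjusted p = 0.284), with 53.6 to 87.3 CPM at dusk and 78.5 to 96.7 CPM at dawn.

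Of the 8 repressors of the loop, 7 were higher and 1 lower at dusk, with a median difference of 2.09 against 0.012 for all genes. Among all genes 8.84% were called higher and 9.55% lower. The 3 Period genes, whose proteins build up in the negative limb, all rose. Per1 lay at 61.9 to 96.7 CPM with a median of 72.4 CPM at dusk and at 12.1, 9.53, 8.98 and 5.52 CPM at dawn (difference 3.05 ± 0.26, adjusted p = 3.92e-09). Per2 lay at 79.7 to 129.6 CPM with a median of 92.5 CPM at dusk and at 37.5, 31.4, 14.3 and 20.2 CPM at dawn (difference 1.99 ± 0.18, adjusted p = 1.26e-08). Per3 lay at 51.4 to 112 CPM with a median of 69.4 CPM at dusk and at 2.41, 2.603, 4.302 and 4.82 CPM at dawn (difference 4.41 ± 0.24, adjusted p = 1.25e-12). The dusk and dawn livers did not overlap in any of the 3.

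The Cryptochromes, partners of the PER proteins in the repressor complex, went opposite ways. Cry2 was higher at dusk, at 43.3 to 55.7 CPM with a median of 49.5 CPM against 25.3, 24.6, 24.6 and 32.3 CPM at dawn (difference 0.90 ± 0.10, adjusted p = 6.32e-07). Cry1 was lower, at 12.3 to 25.1 CPM with a median of 19.04 CPM against 23.2, 31.7, 28.8 and 36.1 CPM, and the groups overlapped (difference -0.67 ± 0.16, adjusted p = 0.00359). Cry1 was thus low at dusk together with the activators. Ciart, a repressor that binds CLOCK and BMAL1, had the largest rise of the genes named here, from 0.304, 0.286, 0.1895 and 0.449 CPM at dawn to a dusk range of 16.99 to 40.1 CPM with a median of 28.3 CPM (difference 6.46 ± 0.37, adjusted p = 3.09e-12). The bHLH repressors Bhlhe40 and Bhlhe41, which compete for E-boxes, rose by 1.43 ± 0.15 (adjusted p = 2.07e-07) and 2.19 ± 0.35 (adjusted p = 5.43e-05). Bhlhe41 was scarce, at 0.674 to 4.76 CPM at dusk and 0.208 to 0.836 CPM at dawn, and its groups overlapped.

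**Figure D2:**
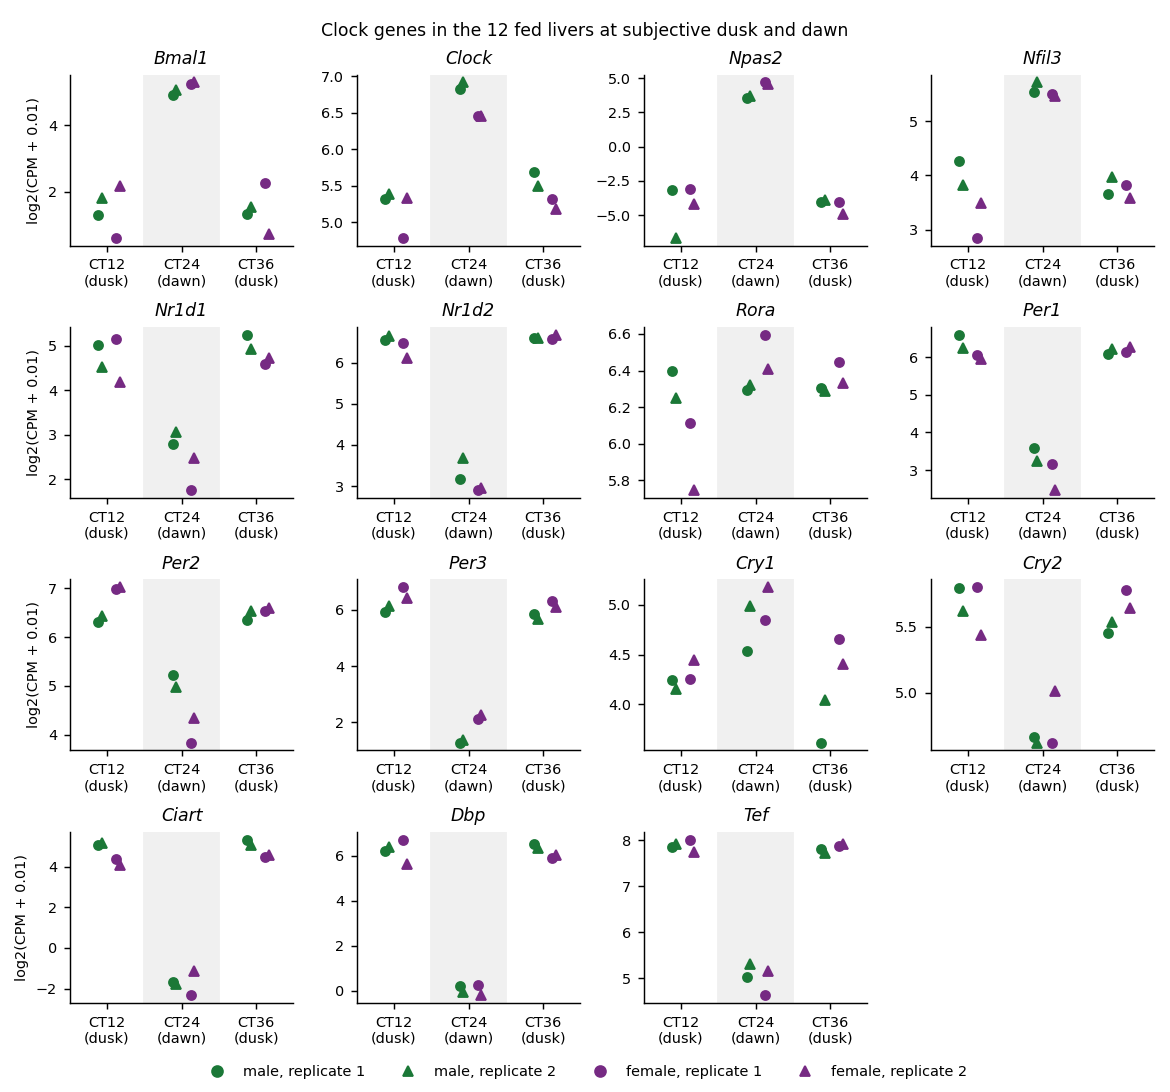
Each panel gives 1 clock gene as log2 of CPM with 0.01 CPM added (vertical axis, scaled to the gene) in the 12 fed livers at CT12, CT24 and CT36, with colour for sex and shape for replicate. The dawn livers stand above all dusk livers for Bmal1, Clock, Npas2 and Nfil3 and below them for Nr1d1, Nr1d2, the Period genes, Ciart, Dbp and Tef.

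Of the 4 output factors, 3 were higher and 1 lower at dusk, where 8.84% of all genes were called higher and 9.55% lower. Dbp, a PAR bZIP activator at D-boxes, rose from 1.14, 0.937, 1.18 and 0.858 CPM at dawn to a dusk range of 48.9 to 105 CPM with a median of 76.9 CPM (difference 6.19 ± 0.46, adjusted p = 3.17e-10). Tef, of the same family, rose to 209.5 to 257 CPM at dusk against 24.8 to 39.7 CPM at dawn (difference 2.81 ± 0.13, adjusted p = 1.02e-13). Hlf moved less, by 0.52 ± 0.11 (adjusted p = 0.00146), and its groups overlapped. The antagonist Nfil3, which encodes E4BP4, lay at 7.19 to 19.1 CPM with a median of 13.4 CPM at dusk and at 46.5, 52.5, 45.1 and 44.1 CPM at dawn (difference -1.86 ± 0.14, adjusted p = 7.27e-10). Activator and antagonist of the D-box thus stood at opposite levels at both phases.

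Some of these genes carry the elements named above near an annotated start. Of 16 clock genes with a promoter window, an E-box was present in 5, a D-box in 1 and the core of a ROR element in 2, and 8 had none of them, namely Clock, Npas2, Nr1d1, Nr1d2, Rora, Cry2, Dbp and Hlf. Matches before the start are shown, and the ROR element core in 1 of 2 windows of Bmal1, which lay after it, is not. The sequences are shown because they place a gene's direction beside its element in the loop. Capitals mark an E-box (letters CACGTG), a D-box (TTATGTAA) or the core of a ROR element (TAGGTCA, read as TGACCTA on the other strand). They are stretches from RefSeq promoter windows on GRCm38.p6, and both strands were searched.
Ciart, chr3:95882247-95882364, minus strand, 3 E-boxes: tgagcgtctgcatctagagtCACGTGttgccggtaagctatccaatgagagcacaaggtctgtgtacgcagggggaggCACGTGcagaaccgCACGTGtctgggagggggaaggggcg
Per1, chr11:69098763-69098808, plus strand: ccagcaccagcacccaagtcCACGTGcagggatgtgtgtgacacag
Bhlhe41, chr6:145865548-145865593, minus strand: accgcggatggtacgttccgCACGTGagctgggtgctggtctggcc
Tef, chr15:81802526-81802571, plus strand: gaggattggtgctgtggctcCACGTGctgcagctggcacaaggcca
Tef, another start, chr15:81811256-81811301, plus strand: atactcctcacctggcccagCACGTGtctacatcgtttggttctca
Cry1, chr10:85185089-85185134, minus strand: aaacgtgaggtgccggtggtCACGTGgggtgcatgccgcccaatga
Per3, chr4:151044796-151044890, minus strand, 2 D-boxes: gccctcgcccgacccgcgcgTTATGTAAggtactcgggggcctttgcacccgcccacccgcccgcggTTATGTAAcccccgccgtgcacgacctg
Nfil3, chr13:52981040-52981071, minus strand, ROR element core: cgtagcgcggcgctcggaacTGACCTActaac
Of the genes with an E-box shown, Ciart, Per1, Bhlhe41 and Tef were higher and Cry1 lower at dusk, and Nfil3, with the ROR element core, was lower. Windows of 300 bases, 250 before and 50 after a start, covered 12298 tested genes. CACGTG was present in 9.11% of all windows, in 12.4% of those of genes called higher at dusk and in 7.71% of those called lower. The ROR element core was present in 2.08% of all windows, 1.75% of the higher and 2.53% of the lower genes. For the D-box these shares were 0.694%, 0.725% and 0.633%. A match describes letters in a short window and is not a measured site.

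The largest rises outside the loop included genes of signalling and lipid synthesis. Rgs16, a regulator of G protein signalling, rose from 0.532, 0.469, 2.56 and 1.74 CPM at dawn to a dusk range of 3.19 to 139 CPM with a median of 50.1 CPM (difference 4.93 ± 0.87, adjusted p = 1.87e-04). Its dusk livers were uneven, with 3.19, 3.85, 18.1 and 139 CPM at CT36. Lpin1, a phosphatidate phosphatase of triglyceride synthesis, rose from 27.2, 17.6, 35.2 and 30.99 CPM at dawn to a dusk range of 294 to 1214 CPM with a median of 747 CPM (difference 4.63 ± 0.39, adjusted p = 3.64e-09). Usp2, a ubiquitin-specific protease, rose to 73.02 to 105 CPM against 3.53 to 7.80 CPM at dawn (difference 3.79 ± 0.21, adjusted p = 1.86e-12). In each of these genes all dusk livers lay above all dawn livers, as they did for Nrg4, a ligand of the epidermal growth factor family (3.23 ± 0.30, adjusted p = 2.29e-08), and the transcript A930033H14Rik (3.84 ± 0.30, adjusted p = 6.90e-10).

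Among the largest falls, Loxl4, a lysyl oxidase that crosslinks matrix proteins, lay at 0.492 to 1.496 CPM with a median of 1.28 CPM at dusk and at 9.52, 11.6, 59.7 and 73.5 CPM at dawn (difference -4.50 ± 0.25, adjusted p = 1.79e-12). The dawn females stood above the dawn males, and both above every dusk liver. Slc34a2, a sodium-phosphate cotransporter, fell from 14.8, 10.02, 28.2 and 37.7 CPM at dawn to a dusk range of 0.0579 to 4.42 CPM with a median of 1.05 CPM (difference -4.30 ± 0.60, adjusted p = 1.06e-05). Chka, which encodes choline kinase and opens phosphatidylcholine synthesis, fell from 153, 157, 210.3 and 166 CPM at dawn to a dusk range of 16.3 to 34.6 CPM with a median of 24.7 CPM (difference -2.81 ± 0.16, adjusted p = 3.48e-12). The β-tubulin gene Tubb2a fell by 2.88 ± 0.21 on the log2 scale (adjusted p = 2.90e-10), Spon2, a secreted matrix protein, by 3.16 ± 0.24 (adjusted p = 5.43e-10) and Dtx4, of the Deltex family, by 2.74 ± 0.13 (adjusted p = 2.31e-13). The predicted genes Gm32006 (-3.76 ± 0.34, adjusted p = 1.02e-08) and Gm36041 (-3.64 ± 0.25, adjusted p = 1.45e-10) also fell, and none of these genes overlapped between dusk and dawn.

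Among 14 enzymes of the methyl and folate cycles, 4 rose, 3 fell and 7 did not pass the test, with a median of 0.18. For all genes the shares were 8.84% higher and 9.55% lower. Mat2a, a methionine adenosyltransferase that makes S-adenosylmethionine, lay at 77.4 to 106 CPM with a median of 87.2 CPM at dusk and at 68.7, 67.6, 58.96 and 50.1 CPM at dawn, without overlap (difference 0.56 ± 0.085, adjusted p = 3.32e-05). Mat1a, its counterpart of the adult liver, lay at 2953 to 4834 CPM at dusk and at 2013, 2586, 3226 and 3188 CPM at dawn (difference 0.46 ± 0.13, adjusted p = 0.0117). Mat1a was not called without control CT24 male replicate 1 (adjusted p = 0.104) or control CT24 female replicate 2 (adjusted p = 0.05496), and without the former 2 enzymes rose in place of 4. Cbs, which commits homocysteine to cysteine synthesis, fell from 534, 625, 570.1 and 642 CPM at dawn to a dusk range of 218 to 393 CPM with a median of 296 CPM (difference -0.96 ± 0.16, adjusted p = 1.16e-04), and Bhmt, which remakes methionine with betaine, gave -0.78 ± 0.24 (adjusted p = 0.0238). Ahcy, the S-adenosylhomocysteine hydrolase, was not called (0.22 ± 0.09, adjusted p = 0.103), and neither was Nnmt, which methylates nicotinamide (0.68 ± 0.35, adjusted p = 0.2002).

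Of 11 methyltransferases and demethylases of RNA and histones, 0 rose and 1 fell, the RNA methyltransferase gene Mettl3 (-0.33 ± 0.076, adjusted p = 0.00228), where 9.55% of all genes fell. The number that fell was 2 without any 1 of control CT12 female replicate 2, CT36 female replicate 1, CT24 male replicate 2 and CT24 female replicate 1. In NAD salvage and the sirtuins, 4 of 9 rose, against 8.84% of all genes, and 1 fell. The fall was not called without control CT24 female replicate 2. Nampt, the rate-limiting enzyme of NAD salvage, rose from 42.5, 46.2, 67.4 and 54.3 CPM at dawn to a dusk range of 123 to 264 CPM with a median of 166 CPM (difference 1.70 ± 0.14, adjusted p = 2.43e-09). The nicotinamide riboside kinase gene Nmrk1 (1.38 ± 0.14, adjusted p = 1.37e-07) and the NAD synthetase gene Nadsyn1 (0.46 ± 0.076, adjusted p = 7.52e-05) also rose, and the groups of all 3 genes were separate.

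**Figure D3:**
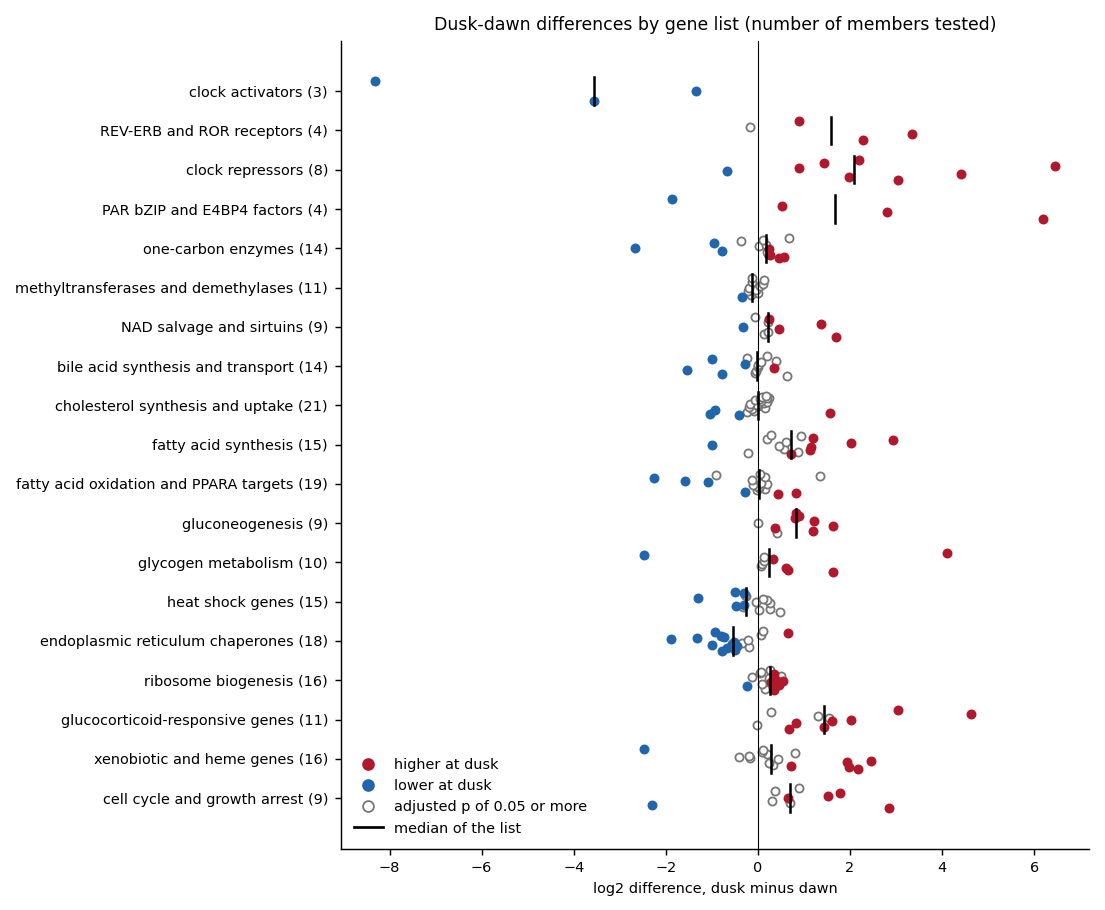
Each row is a list of related genes with the number tested, and each point is a member placed by its log2 difference, dusk minus dawn (horizontal axis), filled where the adjusted p was under 0.05, with a bar at the list's median. The medians run from -3.55 for the clock activators to 2.09 for the repressors.

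Of 9 gluconeogenic genes, 7 rose and 0 fell, with a median of 0.83, where 8.84% of all genes rose and 9.55% fell. Without any 1 of the 4 dawn livers, 5 rose. Between dusk and dawn 7 of the 9 did not overlap, against 8.99% of all genes. Pck1, the phosphoenolpyruvate carboxykinase, lay at 951 to 3504 CPM with a median of 2811 CPM at dusk and at 879, 777, 816 and 609 CPM at dawn (difference 1.62 ± 0.27, adjusted p = 8.25e-05). Ppargc1a, a coactivator of the gluconeogenic programme, rose by 1.21 ± 0.17 (adjusted p = 1.50e-05), the glucose-6-phosphate transporter gene Slc37a4 by 1.20 ± 0.18 (adjusted p = 3.45e-05) and Foxo1, an activator restrained by insulin, by 0.80 ± 0.11 (adjusted p = 4.29e-06). In glycogen metabolism 5 of 10 rose and 1 fell, and 3 rose without control CT24 female replicate 2. Gys2, the liver glycogen synthase, rose from 96.6, 104, 80.2 and 80.9 CPM at dawn to a dusk range of 194 to 356 CPM with a median of 305 CPM (difference 1.64 ± 0.13, adjusted p = 1.53e-09). Ppp1r3c, a glycogen-targeting subunit of protein phosphatase 1, fell from 186, 173, 146 and 147 CPM at dawn to a dusk range of 19.99 to 61.7 CPM with a median of 26.3 CPM (difference -2.46 ± 0.28, adjusted p = 3.94e-07).

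Of 11 glucocorticoid-responsive genes, which include Lpin1 and Per1, 7 rose and 0 fell, where 8.84% of all genes rose and 9.55% fell. The list's median was 1.44, and 5 rose without control CT24 female replicate 1. Zbtb16, a zinc finger repressor, rose from 14.5, 9.27, 13.3 and 11.1 CPM at dawn to a dusk range of 37.1 to 62.9 CPM with a median of 49.7 CPM (difference 2.02 ± 0.32, adjusted p = 4.87e-05), and Dusp1, a phosphatase of MAP kinases, by 1.61 ± 0.28 (adjusted p = 1.74e-04). Of 16 genes of xenobiotic and heme metabolism, 5 rose and 1 fell, and 2 fell without control CT12 female replicate 2, CT36 male replicate 1 or CT36 female replicate 1. Por, the electron donor of cytochromes P450, rose from 119.7, 145, 204 and 268 CPM at dawn to a dusk range of 649 to 1050.1 CPM with a median of 795 CPM (difference 2.18 ± 0.18, adjusted p = 1.91e-09), and Alas1, the first enzyme of heme synthesis, by 1.97 ± 0.48 (adjusted p = 0.00473). Cyp2a5 gave 2.45 ± 0.25 (adjusted p = 9.56e-08), but it has a near-identical copy in Cyp2a4, and counts may be split between them. The member that fell was the nuclear receptor gene Ppard, from 83.6, 58.7, 83.4 and 81.1 CPM at dawn to a dusk range of 11.9 to 16.3 CPM with a median of 13.5 CPM (difference -2.47 ± 0.17, adjusted p = 8.83e-11).

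In fatty acid synthesis 6 of 15 genes rose and 1 fell, where 8.84% of all genes rose and 9.55% fell. The list's median was 0.72, and 3 rose when any 1 of the 4 dawn livers was left out. Thrsp, a regulator of lipogenesis, rose from 357, 208, 219 and 106 CPM at dawn to a dusk range of 1037 to 2560.2 CPM with a median of 1553 CPM (difference 2.92 ± 0.37, adjusted p = 2.76e-06). The elongase gene Elovl6 gave 2.02 ± 0.38 (adjusted p = 3.66e-04) and the elongase gene Elovl5 -0.998 ± 0.18 (adjusted p = 2.17e-04). In fatty acid oxidation and among PPARA targets, 2 of 19 rose and 4 fell. Without control CT24 male replicate 2 or control CT24 female replicate 2, 2 fell, and without the latter 1 rose. Cpt1a, which admits fatty acids to mitochondria, rose by 0.82 ± 0.15 (adjusted p = 3.84e-04), and Pdk4, which restrains pyruvate dehydrogenase, fell from 25.1, 17.99, 24.2 and 26.01 CPM at dawn to a dusk range of 2.51 to 9.34 CPM with a median of 5.34 CPM (difference -2.25 ± 0.26, adjusted p = 6.32e-07).

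Of 14 genes of bile acid synthesis and transport, 1 rose and 4 fell, where 8.84% of all genes rose and 9.55% fell. Without control CT24 female replicate 2, 2 fell. With 1 library left out, the number that rose was 2 without control CT12 female replicate 1, 1 without CT36 male replicate 2, CT36 female replicate 2 or CT24 female replicate 1, and 0 without any of the other dusk and dawn libraries. Hsd3b7, an enzyme that modifies the sterol nucleus, lay at 7.297 to 9.52 CPM with a median of 8.49 CPM at dusk and at 27.0, 21.97, 22.6 and 26.8 CPM at dawn (difference -1.54 ± 0.081, adjusted p = 9.94e-13). Abcb11, the bile salt export pump, fell from 863, 896, 995 and 970.4 CPM at dawn to a dusk range of 358 to 549.8 CPM with a median of 480.4 CPM (difference -0.99 ± 0.12, adjusted p = 1.86e-06). Of 21 genes of cholesterol synthesis and uptake, 1 rose, 3 fell and 17 did not pass the test, with a median of 0.0037. The called share was 19.0%, against 18.4% of all genes tested. The number that rose stayed at 1 with any single dusk or dawn library left out. Hmgcs1, a synthase of the mevalonate pathway, gave -1.05 ± 0.23 (adjusted p = 0.00142). The 3 that fell became 1 without control CT24 female replicate 2.

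Of 18 chaperones and stress genes of the endoplasmic reticulum, 12 fell and 1 rose at dusk, with a median of -0.54, and 7 fell without control CT24 female replicate 2. The rise was lost without control CT36 female replicate 2 or any 1 dawn liver. Among all genes 9.55% fell and 8.84% rose. Hspa5, which encodes the chaperone BiP, lay at 487 to 742 CPM with a median of 615 CPM at dusk and at 1596, 1558, 627 and 788 CPM at dawn (difference -0.78 ± 0.18, adjusted p = 0.00267). Creld2, a protein induced by misfolding, lay at 15.2 to 38.2 CPM with a median of 28.6 CPM at dusk and at 177, 127, 24.4 and 34.4 CPM at dawn (difference -1.32 ± 0.28, adjusted p = 0.00127). In both genes the dawn males stood above every dusk liver, while 1 dawn female in Hspa5 and both in Creld2 fell within the dusk range. Pdia4, a disulfide isomerase, fell by 0.99 ± 0.13 without overlap (adjusted p = 4.36e-06). Fitted alone, the males gave 15 called genes of the 18 and the females 3, but the test of the sex difference itself called none of them. Over all 20114 genes, the fit of males called 2302 and that of females 1238.

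Of 15 cytosolic and mitochondrial heat shock genes, 5 fell and 0 rose, where 9.55% of all genes fell and 8.84% rose. The number that fell was 1 without control CT24 male replicate 1 and 2 without control CT24 female replicate 2. It was 3 without any 1 of control CT12 male replicate 2, CT12 female replicate 1, CT36 male replicate 1 and CT24 male replicate 2. The number that rose was 2 without control CT36 male replicate 1, and 1 without control CT12 female replicate 1 or control CT24 female replicate 2. Hspb1, a small heat shock protein, gave -1.30 ± 0.27 (adjusted p = 9.97e-04). Rbm3, a cold-inducible RNA-binding protein, rose from 23.3, 22.1, 18.1 and 12.5 CPM at dawn to a dusk range of 25.3 to 40.8 CPM with a median of 34.8 CPM (difference 0.88 ± 0.15, adjusted p = 9.70e-05). Its relative Cirbp was not called (0.18 ± 0.15, adjusted p = 0.467).

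Among 9 genes of the cell cycle, 4 rose and 1 fell, where 8.84% of all genes rose and 9.55% fell. Without control CT24 male replicate 2, 2 rose. Wee1, the kinase that holds cells before mitosis, rose from 2.99, 2.84, 2.88 and 3.92 CPM at dawn to a dusk range of 17.95 to 29.4 CPM with a median of 22.6 CPM (difference 2.85 ± 0.15, adjusted p = 5.52e-13). Cdkn1a, an inhibitor of cyclin-dependent kinases, fell from 21.2, 13.04, 26.4 and 12.9 CPM at dawn to a dusk range of 2.48 to 6.33 CPM with a median of 3.50 CPM (difference -2.31 ± 0.38, adjusted p = 7.77e-05). Of 16 genes of ribosome biogenesis, 6 rose and 1 fell, with Ncl, which encodes nucleolin, at 0.54 ± 0.10 (adjusted p = 4.05e-04). The number that rose was 2 without control CT24 male replicate 2 or control CT24 female replicate 1. It was 3 without any 1 of control CT12 male replicate 1, CT12 female replicate 2, CT36 female replicate 2 and CT24 female replicate 2. The fall was not called without control CT24 male replicate 2 or control CT24 female replicate 2.

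Markers of hepatocyte zones and of other cells were called in some lists. Of 7 pericentral markers 1 rose and 2 fell, and of 6 periportal markers 1 rose and 2 fell. Among all genes 8.84% rose and 9.55% fell. With single libraries left out the pericentral counts stayed the same, and 1 to 3 periportal markers fell. None of 7 Kupffer cell, 6 sinusoidal endothelial, 6 lymphocyte or 3 pancreas and fat markers was called, apart from 1 sinusoidal endothelial marker without control CT36 male replicate 1. Of 5 cholangiocyte markers 1 fell (9.55% of all genes), Sox9, a transcription factor of bile duct cells (-1.17 ± 0.22, adjusted p = 4.29e-04). Of 7 stellate and fibroblast markers 1 fell, the receptor gene Pdgfrb (-0.49 ± 0.15, adjusted p = 0.0207), and none without control CT24 male replicate 1 or control CT24 female replicate 1. Of 5 erythroid markers 3 rose (8.84% of all genes), and 1 rose without control CT24 female replicate 2. Their summed level was 57.4 to 258 CPM at dusk and 54.6 to 232 CPM at dawn (exact permutation p = 0.594). The sum joins markers of unlike spread, such as Alas2 (mean 74.1, SD 71.5 CPM at CT36) and Hba-a1 (mean 12.5, SD 3.32 CPM at CT24). Its test therefore cannot speak to single markers. The part of blood or of other cells in any result was not tested.

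The dusk livers of each day were also compared with dawn separately. CT12 against CT24 called 3100 genes (15.4%), and CT36 against CT24 called 2791 (13.9%). Both used the same 4 dawn livers, so their values are only set side by side. Bmal1 gave -3.54 at CT12 and -3.57 at CT36, Dbp 6.24 and 6.15, and Per1 3.07 and 3.03. Among metabolic genes, Elovl6 gave 2.74 and 1.30, Acaca, the acetyl-CoA carboxylase, 1.58 and 0.68, and Pck1 1.25 and 1.995. Between CT36 and CT12 themselves edgeR's test called 0 genes (0%), with 1645 at an unadjusted p under 0.05. In that comparison limma-voom called 0, and edgeR on the 12 libraries alone called 24.

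The dusk minus dawn difference was tested for a difference between females and males, and 1 gene was called (0.00497%), with 1297 at an unadjusted p under 0.05. This gene, Klhdc8a, of the kelch domain family, was named after its value was seen. It lay at 6.78 and 6.32 CPM in dawn females, at 2.76 and 3.07 CPM in dawn males and at 0.806 to 2.597 CPM at dusk. Its difference was -2.81 in females and -0.77 in males (adjusted p of the sex difference = 0.00327), and no gene was called without control CT24 male replicate 1 or control CT24 male replicate 2. Fits that left out other libraries called 1 or 2.

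Other genes had dawn levels that split by sex without passing that test. Elovl3, a male-biased elongase, lay at 939 and 765 CPM in dawn males and at 9.86 and 4.29 CPM in dawn females, and its difference was -4.29 in males and -0.81 in females (adjusted p of the sex difference = 0.281). Ndrg1, a stress-responsive gene, lay at 14.5, 19.8, 63.5 and 68.7 CPM at dawn and gave -1.21 in males and -2.70 in females (adjusted p of the sex difference = 0.05902). Trim24, a transcriptional cofactor, lay at 14.4, 17.4, 65.3 and 87.3 CPM at dawn and gave 1.10 and -0.45 (adjusted p of the sex difference = 0.05902). Dawn females stood above dawn males in Ndrg1 and Trim24 and below them in Elovl3. Whether the sexes also differed in these genes at dusk was not tested.

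The 28 fed libraries of the other 7 times gave a look at the same axis with none of the 12 livers. A 24 h cosine with its peak at dusk was fitted to them with its sine and sex, and its size from dusk to dawn is given as a log2 difference. It was called for 1565 genes (7.78%), and fits without 1 replicate number of 1 sex at every time called 880 to 961. Of the 3699 genes called between dusk and dawn, 90.9% had the same direction at the other times, against 68.6% of all genes tested. Of the same genes, 1159 (31.3%) were called there in the same direction and 6 in the opposite one, and 2.44% of the uncalled genes were called.

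Among the loop genes, Bmal1 gave -3.96 ± 0.66 at those times (adjusted p = 2.13e-04), Npas2 -8.82 ± 0.58 (adjusted p = 8.70e-11) and Ciart 5.66 ± 0.66 (adjusted p = 1.99e-06). Nr1d1 was not called (1.03, adjusted p = 0.163): its highest mean was at CT32, 167 ± 59.5 CPM (SD, n = 4), and its lowest at CT20, 2.61 ± 1.38 CPM. Several genes with large differences between dusk and dawn had none called at the other times. Pck1 gave -0.32 (adjusted p = 0.668), Zbtb16 -0.89 (adjusted p = 0.283) and Hspa5 -0.28 (adjusted p = 0.655). Zbtb16 stood at 47.6 ± 8.21 CPM (SD, n = 4) at CT12 and 50.4 ± 11.1 CPM at CT36, but at 10.04 ± 2.60 CPM at CT8 and 7.81 ± 2.09 CPM at CT32, 4 h before each. Of the 7 gluconeogenic genes that rose at dusk 1 was called in the same direction at the other times, and of the 8 clock repressors 7 were. Among all genes called between dusk and dawn this share was 31.3%.

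**Figure D4:**
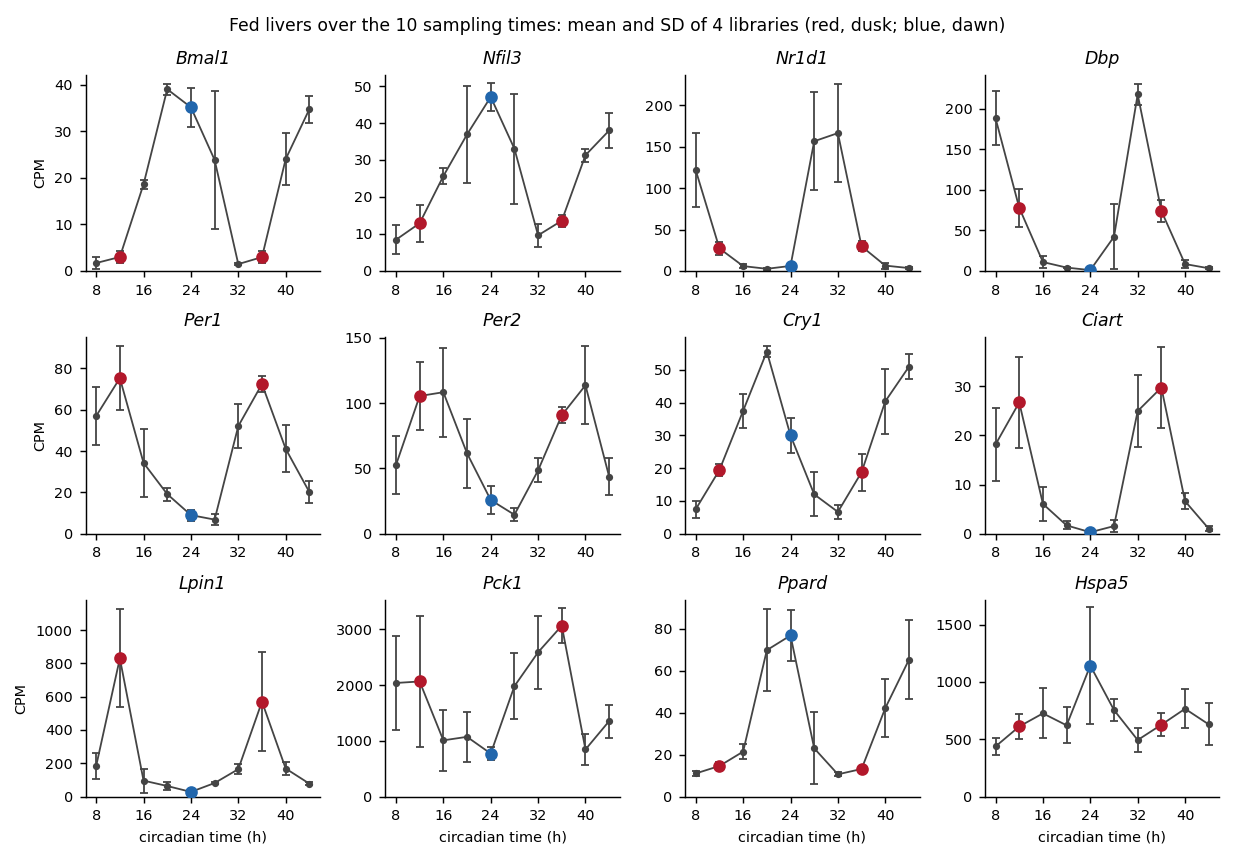
Each panel gives the mean CPM of 1 gene (vertical axis) in fed livers at 10 circadian times (horizontal axis, hours), with error bars of 1 SD over 4 mice, the dusk times in red and the dawn time in blue. Bmal1 is highest at CT20 (39.01 CPM) and Dbp at CT32 (218 CPM), while Lpin1 is highest at CT12 and lowest at CT24.

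Fasted livers at the same times were the closest comparison. The dusk minus dawn difference was tested for a difference between fed and fasted livers, and 483 of 21187 genes were called (2.28%), 217 without control CT24 female replicate 2. Of the 3699 genes called in fed livers 273 (7.38%) were among them: 167 had the opposite sign in fasted livers, 97 the same sign with a smaller difference and 9 a larger one. This sorting used the estimates alone, however small, and not whether fasted livers themselves differed between dusk and dawn. Of the uncalled genes 1.25% were called for it.

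In the core loop the test of this difference called Nr1d2 (3.34 fed, 1.95 fasted, adjusted p = 1.55e-05), Per1 (3.05 and 1.07, adjusted p = 0.00563) and Ciart (6.46 and 4.41, adjusted p = 0.0402). It did not call Bmal1 (-3.55 and -3.28, adjusted p = 0.811) or Dbp (6.19 and 5.18, adjusted p = 0.3902). Ppard had the smallest p, with -2.47 in fed and -0.060 in fasted livers (adjusted p = 1.79e-10). Lpin2, a phosphatidate phosphatase, gave 2.20 and 0.091 (adjusted p = 1.94e-06), and its relative Lpin1 4.63 and 0.94 (adjusted p = 7.78e-04). St3gal5, a ganglioside synthase, gave 1.61 and -0.35 (adjusted p = 1.31e-05).

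Metabolic genes differed between the feeding states as well. Por gave 2.18 in fed and 0.53 in fasted livers (adjusted p = 4.15e-05), Nampt 1.70 and 0.92 (adjusted p = 0.00941), Pck1 1.62 and 0.097 (adjusted p = 0.00302), and Mat2a 0.56 and -0.11 (adjusted p = 0.00247). In the cholesterol list 16 of its 21 genes were called for the difference between feeding states, against 2.28% of all genes tested for it. In fed livers 17 of the 21 were not called between dusk and dawn. The count of 16 was not taken again with single libraries left out. Hmgcs1 gave -1.05 fed and 0.093 fasted (adjusted p = 0.0499). As the fast had lasted 2, 14 and 26 h at CT12, CT24 and CT36, its mean length was equal at dusk and dawn, and an effect of fasting that is not linear in its length was not tested.

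**Figure D5:**
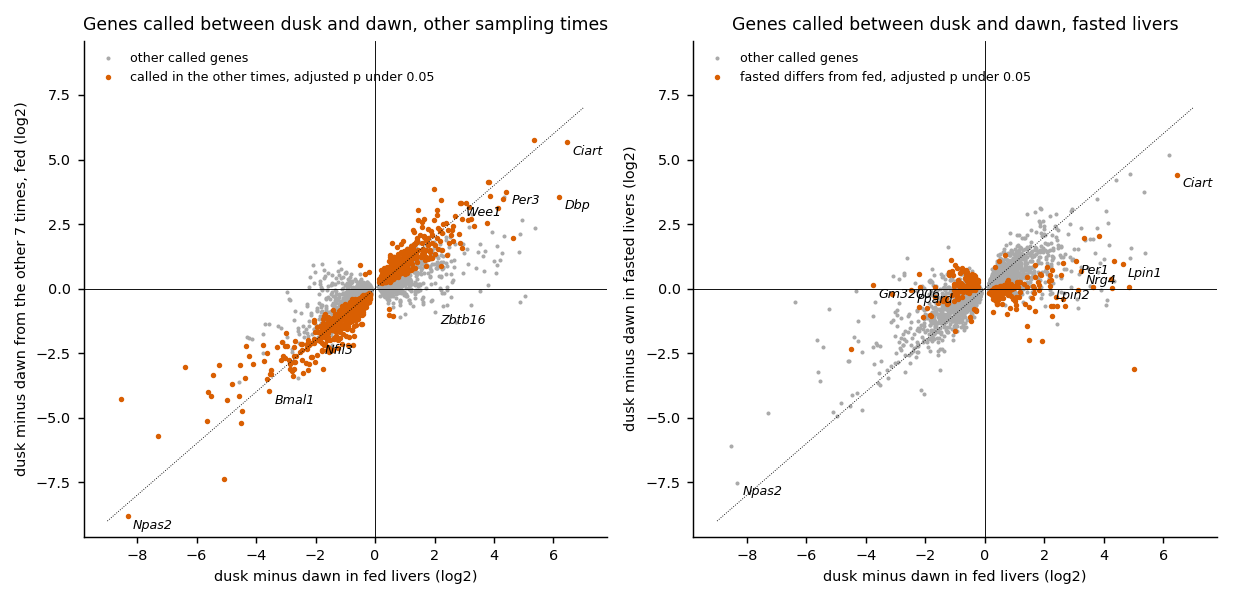
Each point is 1 of the 3699 called genes, placed by its log2 dusk minus dawn difference in the 12 fed livers (horizontal axes) against its dusk component at the other 7 fed times (left, vertical axis) or its difference in fasted livers (right, vertical axis). On the left, 90.9% of the points have the same sign on both axes.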

How the data were processed

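Gene counts of 80 mouse liver libraries were deposited as whole-number counts per gene, and the 12 titled control at CT12, CT24 and CT36 were compared here. Per the submitters' processing notes, the authors used Trimmomatic, HISAT2, DESeq2 and the build GRCm39; the counter and all versions are not given in the sources used here, and the reporting paper is a review that states no test for these data. Promoter windows are from RefSeq on GRCm38.p6, and no gene coordinates are printed, since the builds differ. The file listed 78275 genes, of which 20114 passed edgeR's filterByExpr in the 40 control libraries. Groups came from titles, and each library was a separate mouse. The 12 libraries matched the sex in their titles by Xist and Ddx3y.

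A mean for each time and sex was fitted with edgeR 4.0.16 (R 4.3.3) to TMM-scaled counts with a trended dispersion, and the mean of CT12 and CT36 minus CT24 was tested by the quasi-likelihood F test, called at a Benjamini-Hochberg adjusted p under 0.05. The SE is the difference divided by the square root of F. CPM used TMM library sizes, and fitted log2 CPM a prior count of 2. The other 7 control times, and the 80 libraries for fed against fasted, were fitted in the same way. Totals and marker sums were compared by two-sided exact permutation tests over the 12 libraries. Scripts were tested on simulated data. The depth was 34574971 to 59927771 counts per library. Alternatives were other scalings, filters, tools (limma 3.58.1, DESeq2 1.42.0), sample sets, covariates and each library left out.

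Genes were named by rule: all members of the 4 clock lists, the 10 largest rises and falls among called, separate genes with a mean log2 CPM of at least 1, up to 4 genes of each other list by p, the 5 smallest p for the sex and the treatment differences, and genes the series turns on. Hspa5, Creld2, Pck1, Bhmt, Alas1, Sox9 and Pdgfrb are list members outside that rule, named after their values were seen. The members and lists were chosen with earlier results of these data known. Some genes of these lists are not reported here.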

Additional observations from a re-analysis of the deposited data

Results flagged for a closer look

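In 12 of 206 sets of values, 1 library lay far from the rest of its group (5.83%, where chance gives about 5%). Control CT36 male replicate 1 held 59927771 counts, the next dusk library 45710407. Rn18s-rs5 took 1.402% of the counts in control CT12 female replicate 2 (next at dusk 0.112%) and 0.6603% in control CT24 male replicate 1 (next at dawn 0.207%). At dusk, Nr1d2 lay at 68.5 CPM in control CT12 female replicate 2 (nearest 88.7), Loxl4 at 0.492 CPM in control CT36 male replicate 2 (nearest 0.987) and Ppp1r3c at 61.7 CPM in control CT12 male replicate 2 (nearest 32.5). At dawn, control CT24 male replicate 2 was low for Dtx4, at 28.01 CPM (nearest 29.7), and for Ppard, at 58.7 CPM (nearest 81.1). Control CT24 female replicate 2 was high for Cry2, at 32.3 CPM (nearest 25.3), and for Wee1, at 3.92 CPM (nearest 2.99). Control CT24 female replicate 1 was low for the chaperone genes Fkbp4, at 161 CPM (nearest 219.5), and Hsp90aa1, at 116 CPM (nearest 204).

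The dusk minus dawn difference of Klhdc8a differed between the sexes by -2.04 (females minus males, log2). For 24 of the genes named by rule the dusk minus dawn difference differed between feeding states, each at an adjusted p under 0.05 by edgeR's quasi-likelihood test. Values are fasted minus fed on the log2 scale, and Pck1, named outside the rule, is not among the 24. Clock genes and their companions gave Nr1d2 -1.38, Per1 -1.98 and Ciart -2.04. The largest rises gave Lpin1 -3.68, Nrg4 -2.53 and A930033H14Rik -1.78, and the largest falls Gm32006 3.90 and Loxl4 2.17. The genes with the smallest p gave Ppard 2.42, Lpin2 -2.10, Gm28857 -2.73, Tmed5 -1.16 and St3gal5 -1.95. Metabolic genes gave Por -1.65, Mat2a -0.65, Mat1a -0.91, Cpt1a -0.87, Nampt -0.77, Gpt2 -0.69, Srebf2 0.70, Mvd 1.77 and Hmgcs1 1.15. The chaperone gene Calr gave 0.73 and Ndrg1 1.21.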

How the results depend on the processing

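The number called between dusk and dawn (3699) stayed within 1.5 times under other scalings, filters, tools and sample sets (2534 to 4351). It was 2302 in males only, 1238 in females only, 478 when tested against 1.5-fold and 2271 at an adjusted p under 0.01. Genes higher at dusk numbered 1169 with no sex in the model, 1069 in males, 515 in females and 1068 at 0.01, and genes lower 1233 in males, 723 in females and 1203 at 0.01. Those at least 1.5-fold numbered 886 in females. With single libraries left out, the counts ran from 2443 to 3630 called, 1139 to 1706 higher, 1304 to 1924 lower, 1238 to 1658 at least 1.5-fold, 1898 to 2419 not overlapping, 2125 to 3087 for CT12, 1859 to 2706 for CT36, 0 to 2 for the sex difference and 217 to 493 for the treatment difference, with control CT24 female replicate 2 giving the lowest in all but the sex difference and the groups that did not overlap. The other times (1565) gave 880, 961, 922 and 892 without 1 replicate number of 1 sex. The 12 libraries alone called 24 genes between CT36 and CT12 and 23 for the sex difference, which gave 5 with at least 10 counts in each library. Control CT8 female replicate 2, in the fit of the 40 control libraries and among the other times, held 25534901 counts, 31.3% of them Rn18s-rs5. Without it, a setting chosen after seeing the data, 4272 genes were called between dusk and dawn, 1985 of them higher. That setting called 1905 at the other times and 553 for the treatment difference. Same-numbered libraries correlated at 0.0624 to 0.241 over 11688 genes, and the labels name nothing that same-numbered mice share, so the numbers were not taken as pairs. With the replicate block 3590 genes were called between dusk and dawn and 2 for the sex difference. Of 2522 pairs of a named gene and a setting, 2405 kept direction and call, 103 lost the call and 8 gained it. These pairs rest on 101 genes, 94 of them called, since most lists kept only called genes. The sign turned in 6: Trim24 -0.040 with no sex in the model and -0.45 in females, Zfp292 0.48 in males, and in females Ier2 -0.38, Bag3 0.064 and Cirbp -0.015. The cause of these moves was not tested, and fits that left out libraries or a sex also had fewer samples. Dawn rested on 4 livers of 1 day.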
